A study of Mus musculus with 7 samples.

Results

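Immediate early genes that are widely used as signs of stress during tissue dissociation were followed in bulk RNA-seq of sorted mouse intestinal crypt cells. The set holds 10 genes, listed by symbol and chosen with earlier results of these data known. They are the transcription factor genes Fos, Fosb, Jun, Junb, Jund, Egr1 and Atf3, and the response genes Ier2, Ier3 and Zfp36. All 10 were found among the 37310 genes of the count table, and all 10 passed the filter on low counts that left 14626 genes for testing.

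Immediate early genes are switched on within minutes of a stimulus, without new protein synthesis, by factors already present in the cell. Kinases of the MAP kinase cascades act on factors such as serum response factor with its ternary complex partners, CREB and ATF proteins and Jun itself. Fos and Jun family proteins pair through leucine zippers to form AP-1, a factor that binds the promoters and enhancers of many growth and stress genes. Enzymatic and mechanical dispersal of a tissue and sorting of living cells can induce these genes, and in the crypt the same genes also respond to growth factors, so their level at lysis can reflect both the tissue and its handling.

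The cells came from mice carrying the alleles BmicreERT2 and Rosa26RFP, in which the promoter of Bmi1, a Polycomb gene used to mark reserve stem cells of the crypt, drives a tamoxifen-inducible Cre that turns on a red fluorescent reporter. Every group carried both alleles, ate its diet from weaning and was 3 months old. Crypts were dispersed to single cells, and strongly red cells with Epcam, an epithelial surface protein, and without CD45, a leukocyte protein, were sorted and lysed in bulk. AIN76A, a purified control diet, had 2 libraries, NWD1, a purified Western-style diet rich in fat and poor in calcium, vitamin D3 and methyl donors, had 3, and NWD2, which is NWD1 with calcium and vitamin D3 restored, had 2. All libraries were labelled male except NWD1 replicate 2, labelled female. The labels do not say that each library is a separate animal, so p-values measure the spread between these libraries, which may be technical. One i5 index, a barcode of the library preparation, was shared by both AIN76A libraries and NWD1 replicates 1 and 2, and another by NWD1 replicate 3 and both NWD2 libraries.

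Total counts ran from 14034315 in NWD1 replicate 3 to 77959407 in NWD2 replicate 2. NWD2 replicate 2 stood apart from the others, with an Epcam level of 225 CPM (read counts scaled to a common library size with TMM) against 510 to 1338 CPM elsewhere and summed enterocyte markers of 87102 CPM against 41474 to 58807 CPM. The diet of NWD1 replicate 3 is less certain than that of the others, because 1 column of the deposited TPM table is headed NWD2 replicate 3, which no sample is called, while NWD1 replicate 3 has no TPM column. Some of the values and counts are also given without each of these 2 libraries, beside those of all 7. Sorted cells held the epithelial genes at 8056 to 11773 CPM in sum over 7 markers. The 12 leukocyte markers summed to 14.3 to 34.9 CPM, with Ptprc, which encodes CD45, at 1.17 to 5.75 CPM. The 10 fibroblast and endothelial markers summed to 2.25 to 9.91 CPM, with Cdh5 at 0 in all 7 libraries.

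Promoters are shown because elements through which signals reach immediate early genes can lie in them. RefSeq (GRCm38.p6) windows of 300 bases, from 250 before the annotated start to 50 after it, were found for 8 of the 10 genes, all but Egr1 and Ier2. The motifs searched on both strands were the CArG box, which serum response factor binds, the cyclic AMP response element TGACGTCA, the AP-1 site TGACTCA, the EGR site GCGTGGGCG and the TATA box TATAAA. The core TGACG and the looser element TNACNTCA, which can overlap each other, as in Atf3, were added after the sequences had been seen. The 150 bases before the start follow, 5′ to 3′ on the gene's strand, with matches in capitals. Zfp36 is shown because it held a CArG box, and the other 4 were chosen after their values or motifs were seen, as leading members of the AP-1 and ATF families.
Fos, chr12:85473740-85473889, plus strand: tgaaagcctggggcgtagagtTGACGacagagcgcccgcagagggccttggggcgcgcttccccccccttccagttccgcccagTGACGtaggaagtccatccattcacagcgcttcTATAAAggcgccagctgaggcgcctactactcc
Jun, chr4:95052223-95052372, minus strand: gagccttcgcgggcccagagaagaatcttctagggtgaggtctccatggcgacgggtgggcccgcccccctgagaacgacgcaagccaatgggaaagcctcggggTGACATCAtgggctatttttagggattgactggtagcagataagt
Jund, chr8:70697589-70697738, plus strand: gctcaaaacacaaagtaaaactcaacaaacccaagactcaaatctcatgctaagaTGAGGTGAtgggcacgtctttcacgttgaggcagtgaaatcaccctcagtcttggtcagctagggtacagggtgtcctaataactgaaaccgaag
Atf3, chr1:191183334-191183483, minus strand: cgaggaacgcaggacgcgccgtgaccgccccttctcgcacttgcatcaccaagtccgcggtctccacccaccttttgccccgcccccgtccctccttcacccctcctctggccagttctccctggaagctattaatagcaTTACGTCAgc
Zfp36, chr7:28379229-28379378, minus strand: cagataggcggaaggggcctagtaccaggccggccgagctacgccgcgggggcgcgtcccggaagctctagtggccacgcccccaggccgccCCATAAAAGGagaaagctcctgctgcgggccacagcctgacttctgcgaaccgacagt

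A CArG box was found only in Zfp36 among the 8 windows, as CCATAAAAGG starting 58 bases before the gene start, and 1.63% of all 32851 windows held one. No window of the 8 held TGACGTCA, TGACTCA or GCGTGGGCG, which were present in 1.79%, 5.2% and 0.612% of all windows. TATAAA occurred in Fos, starting 33 bases before the start, and in Junb, at the start itself, against 13.6% of all windows. TGACG lay in the windows of 4 genes (Fos with 2 matches, Fosb, Junb and Atf3) against 20.8% of all windows. TNACNTCA lay in 3 (Jun with 2 matches, Jund with 2 and Atf3) against 16.4%. As these last 2 motifs were added after the sequences were seen, their counts cannot be weighed against those shares. GC content, at 46.7 to 68.3% in the 8 windows against a median of 52.7% over all windows, was not allowed for. In Atf3 the match TTACGTCA began 10 bases before the start, and in Jun the match TGACATCA began 45 bases before it. In Jund both matches were on the opposite strand, so the printed strand reads TGAGGTGA. These are matches of letters within 1 short window per gene. They say nothing of elements farther from the start, which were not searched, or of binding in these cells.

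**Figure D1:**
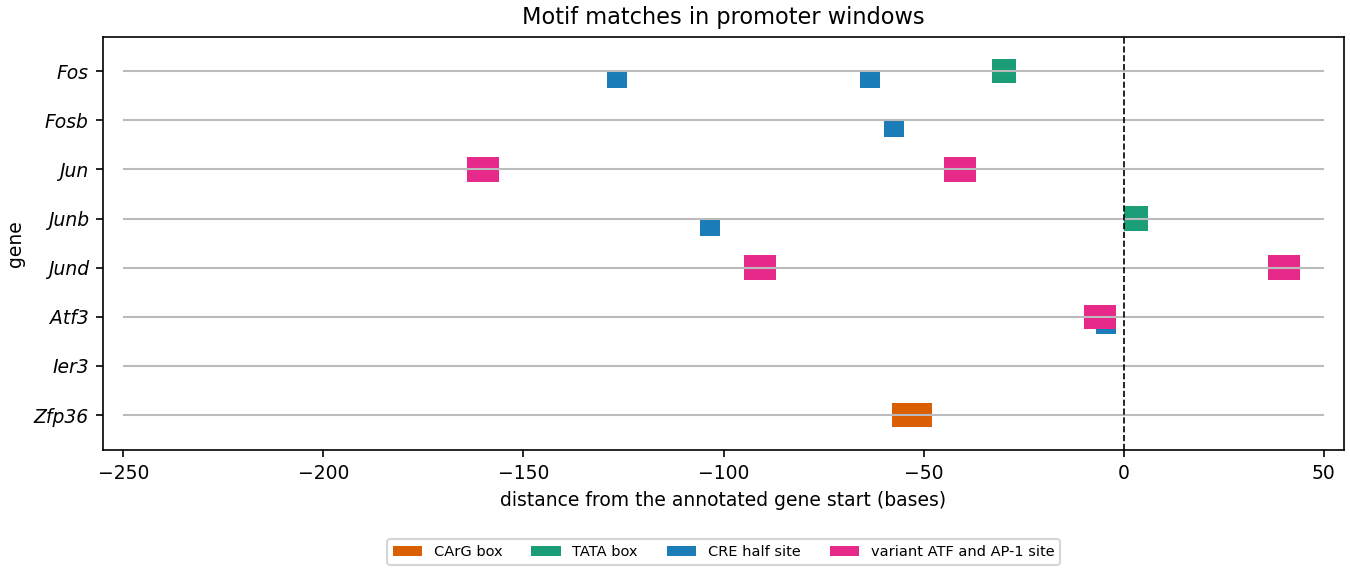
Motif matches along the promoter windows of the 8 genes that have one. The horizontal axis is the distance in bases from the annotated gene start (dashed line), and each grey line is 1 gene's window. Coloured blocks are matches of the CArG box, the TATA box, TGACG, a part of the cyclic AMP response element (CRE), and the looser element TNACNTCA. The latter is named variant ATF and AP-1 site in the legend, but its matches in Jund and the one farther from the start in Jun lack TGAC. The single CArG box lies in Zfp36, and Ier3 holds no match.

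Compared per transcript length, Zfp36 was the most abundant of the genes, at 165 ± 58.5 TPM (reads scaled for transcript length and library size; mean ± SD over the 6 libraries with a TPM column). Fos followed at 77.0 ± 56.6 TPM, Ier2 at 71.7 ± 29.1 TPM and Junb at 69.0 ± 21.6 TPM. A second tier held Ier3 at 16.0 ± 2.27 TPM, Jun at 14.6 ± 10.3 TPM, Atf3 at 7.91 ± 3.10 TPM, Egr1 at 6.04 ± 5.72 TPM and Jund at 5.60 ± 4.43 TPM. Fosb was lowest at 0.150 ± 0.045 TPM. Ranges over the 6 libraries overlapped between neighbours in this order except between Junb and Ier3 (lowest 43.9 against highest 18.1 TPM) and between Jund and Fosb (lowest 0.973 against highest 0.230 TPM). Among the genes that passed the filter on low counts, Zfp36 thus lay between the 92.3 and 96.6 percentiles in each of these 6 libraries. Fosb lay between the 5.15 and 14 percentiles of the same genes. In bulk RNA, a few cells with high levels cannot be told apart from many cells with low ones, nor fewer cells from less RNA per cell.

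**Figure D2:**
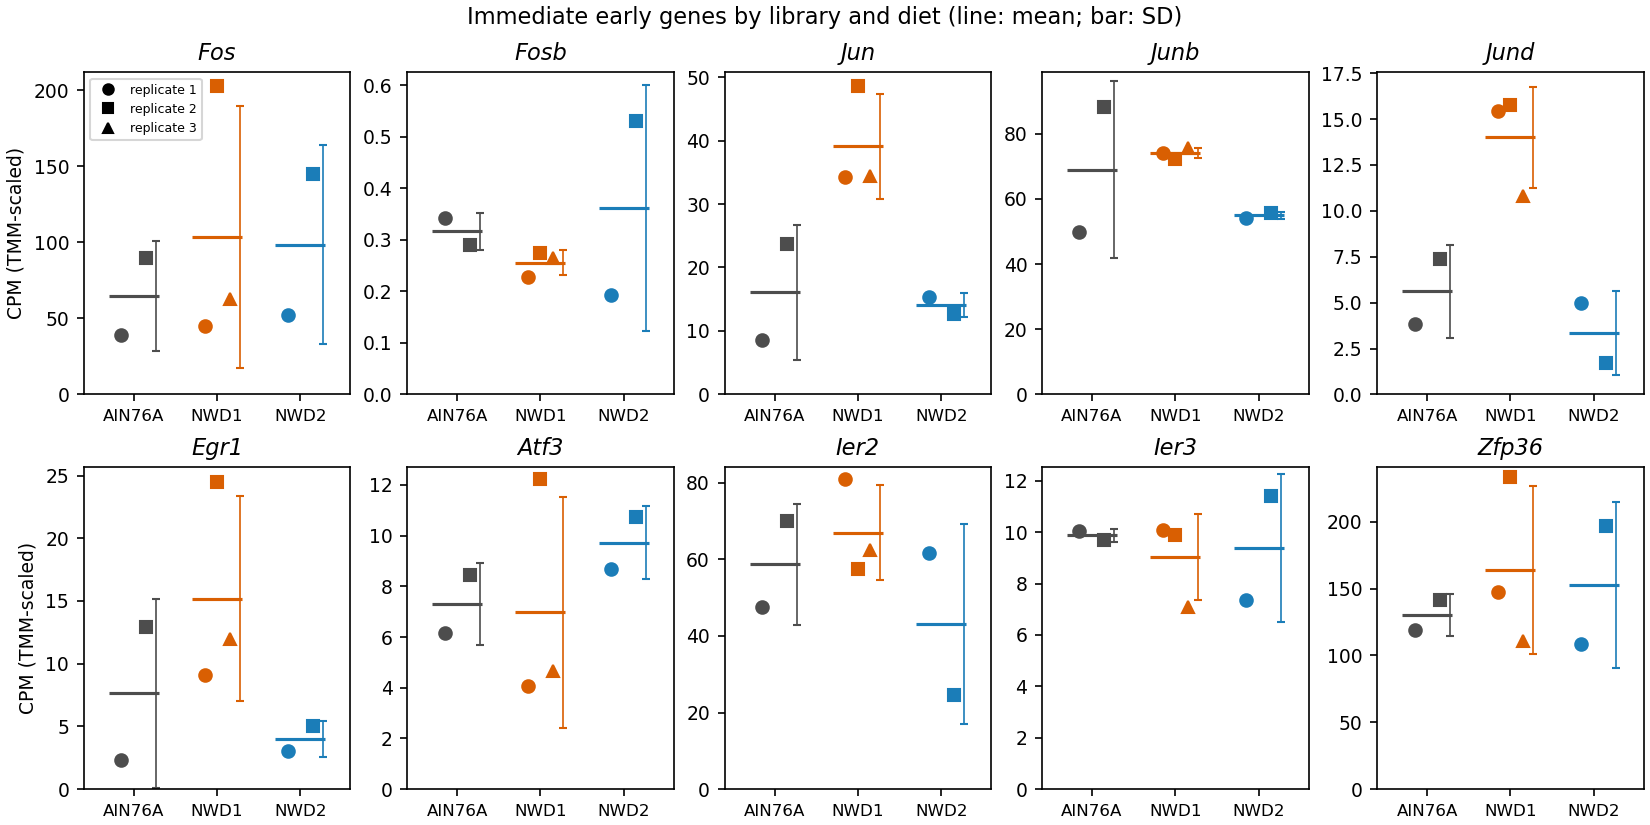
Levels of the 10 immediate early genes in each library, by diet. The vertical axes give TMM-scaled CPM, each on its own scale starting at 0, symbols mark the replicates, horizontal lines the mean of each diet and vertical bars the SD (n = 2, 3 and 2). Jun and Jund lie higher in each of the 3 NWD1 libraries than in any other library, whereas Fos and Zfp36 spread widely within NWD1 and NWD2.

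Fos, whose protein is the inducible partner of Jun in AP-1, had 38.9 and 90.0 CPM in the AIN76A libraries, 44.8, 203 and 62.9 CPM in NWD1 libraries, and 52.4 and 145 CPM under NWD2, in the order of the replicate numbers. Each diet held low and high libraries, and the 3 diets overlapped throughout. The means were 64.4 ± 36.1 (SD, n = 2), 103 ± 86.3 (SD, n = 3) and 98.5 ± 65.2 CPM (SD, n = 2). The fitted log2 fold change was 0.68 (SE 0.69) for NWD1 and 0.61 (SE 0.74) for NWD2, both against AIN76A, and -0.07 (SE 0.67) with NWD2 against NWD1. Each value was smaller than its SE, and the edgeR adjusted p-values were 0.887, 0.996 and 0.976. Without NWD1 replicate 2, the library with the highest Fos level, the first of these values turned to -0.26, and without NWD2 replicate 2 the second turned to -0.29.

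Fosb, a second Fos family partner, was close to the detection limit. It had 0.342 and 0.290 CPM in AIN76A, 0.228, 0.273 and 0.266 CPM in NWD1 libraries, and 0.192 and 0.531 CPM under NWD2, resting on 4 to 33 counts per library. Every NWD1 library was below both AIN76A libraries, but the fitted log2 fold change was -0.31 (SE 0.69; edgeR adjusted p = 0.941). NWD2 held both the lowest and the highest library.

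Jun, the AP-1 subunit that also acts on its own promoter, had 8.61 and 23.6 CPM in AIN76A, 34.2, 48.6 and 34.5 CPM in NWD1 libraries, and 15.4 and 12.7 CPM under NWD2. All 3 NWD1 libraries were higher than all 4 libraries of the other diets. The means were 16.1 ± 10.6 (SD, n = 2), 39.1 ± 8.24 (SD, n = 3) and 14.1 ± 1.92 CPM (SD, n = 2). With NWD1 against AIN76A the log2 fold change was 1.28 (SE 0.42, 95% interval 0.33 to 2.23), with an edgeR unadjusted p of 0.0136 and an adjusted p of 0.878. With NWD2 against NWD1 it was -1.48 (SE 0.42, 95% interval -2.43 to -0.52), with an edgeR unadjusted p of 0.00667 and an adjusted p of 0.504. The AIN76A and NWD2 libraries overlapped, with a log2 fold change of -0.20 (SE 0.44; edgeR adjusted p = 0.996).

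Jund, which encodes the Jun family member that resting cells usually express, showed a similar order. It had 3.83 and 7.40 CPM in AIN76A, 15.4, 15.8 and 10.8 CPM in NWD1 libraries, and 4.97 and 1.72 CPM under NWD2. Again every NWD1 library was above every other library. The means were 5.62 ± 2.52 (SD, n = 2), 14 ± 2.76 (SD, n = 3) and 3.35 ± 2.30 CPM (SD, n = 2). The log2 fold change with NWD2 against NWD1 was -2.06 (SE 0.51, 95% interval -3.22 to -0.91), a 0.239-fold level, with an edgeR unadjusted p of 0.00285 and an adjusted p of 0.481. This was the 86th smallest p of 14626 genes. With NWD1 against AIN76A it was 1.32 (SE 0.50; edgeR unadjusted p = 0.0254, adjusted p = 0.878), and with NWD2 against AIN76A -0.74 (SE 0.53; edgeR adjusted p = 0.996). The last value ranged from -1.74 without NWD2 replicate 1 (edgeR adjusted p = 0.302) to -0.17 without NWD2 replicate 2, and was -1.14 and -0.18 without AIN76A replicates 1 and 2.

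Junb, the third Jun family gene, had 49.7 and 88.1 CPM in AIN76A, 74.0, 72.3 and 75.6 CPM in NWD1 libraries, and 54.1 and 55.7 CPM under NWD2. The NWD1 libraries were alike, at 74.0 ± 1.64 CPM (SD, n = 3), and all lay above both NWD2 libraries, at 54.9 ± 1.08 CPM (SD, n = 2). The fitted log2 fold change between these diets was -0.43 (SE 0.29; edgeR adjusted p = 0.738). The 2 AIN76A libraries were the lowest and the highest of all 7.

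Egr1, a zinc finger factor induced through serum response elements, varied most. It had 2.32 and 12.9 CPM in AIN76A, 9.08, 24.5 and 12.0 CPM in NWD1 libraries, and 3.01 and 5.02 CPM under NWD2. All NWD1 libraries were above both NWD2 libraries, while the AIN76A libraries differed 5.57-fold, one below every other library and the other within the NWD1 range. The log2 fold change with NWD2 against NWD1 was -1.92 (SE 0.71, 95% interval -3.53 to -0.32), with an edgeR unadjusted p of 0.024 and an adjusted p of 0.548. The other comparisons gave 0.998 (SE 0.68; edgeR adjusted p = 0.878) with NWD1 and -0.92 (SE 0.74; edgeR adjusted p = 0.996) with NWD2, each against AIN76A. Both depended on the AIN76A libraries. The first was 0.22 without replicate 1, which had the lowest level, and 2.71 (edgeR adjusted p = 0.628) without replicate 2. The second was -1.69 and 0.80. The first was also 0.47 without NWD1 replicate 2.

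Atf3, a stress-induced factor of the ATF and CREB family, had 6.16 and 8.44 CPM in AIN76A, 4.06, 12.2 and 4.65 CPM in NWD1 libraries, and 8.70 and 10.7 CPM under NWD2. Both NWD2 libraries were above both AIN76A libraries, and NWD1 held the 2 lowest libraries and the highest. The log2 fold change with NWD2 against AIN76A was 0.41 (SE 0.53; edgeR adjusted p = 0.996), so the difference was smaller than its error.

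Ier2, a nuclear response gene, had 47.6 and 70.0 CPM in AIN76A, 80.9, 57.4 and 62.5 CPM in NWD1 libraries, and 61.7 and 24.7 CPM under NWD2. NWD2 replicate 2 was lowest, and the other 6 libraries overlapped between diets. The log2 fold change with NWD2 against NWD1 was -0.63 (SE 0.40; edgeR adjusted p = 0.736), and -0.11 without NWD2 replicate 2. Ier3, a regulator of cell survival, was the steadiest of the genes, from 7.10 CPM in NWD1 replicate 3 to 11.4 CPM in NWD2 replicate 2. Its fitted log2 fold changes lay between -0.12 and 0.05.

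Zfp36 encodes tristetraprolin, which binds AU-rich elements and speeds the decay of immediate early and cytokine mRNAs. It had 119 and 142 CPM in AIN76A, 147, 234 and 111 CPM in NWD1 libraries, and 109 and 197 CPM under NWD2. Replicate 2 was the highest library in each diet, and the diets overlapped. The log2 fold changes were 0.33 (SE 0.38), 0.23 (SE 0.41) and -0.10 (SE 0.38) for NWD1 and NWD2 against AIN76A and for NWD2 against NWD1, with edgeR adjusted p-values of 0.9, 0.996 and 0.934.

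The comparison of NWD1 with AIN76A addresses the effect of the Western-style diet. Jun and Jund had the 2 largest differences, 2.43-fold and 2.502-fold in the fit, and their NWD1 libraries lay above both AIN76A libraries. Egr1 (1.998-fold) and Fos (1.61-fold) had overlapping libraries. No gene was called at an adjusted p under 0.05 by edgeR, neither among the 10 (0 of 10) nor among all 14626 (0%). At an unadjusted edgeR p under 0.05, 2 of the 10 genes were higher and 0 lower, against 2.52% and 0.896% of all genes (3.42% in either direction). Libraries did not overlap for 3 of the 10 (Jun and Jund higher, Fosb lower), against 11.4% of all genes higher and 8.61% lower (20.1% in all). The median log2 fold change of the 10 was 0.26, beside 0.01 over all genes. DESeq2 called 1 gene of all, and none of the 10. Without AIN76A replicate 1, which had the lowest level of 4 of the 10 genes, the values of Jun and Jund were 0.72 and 0.92, and without NWD1 replicate 3 they were 1.36 and 1.48. The latter are also the values within 1 i5 index. Without AIN76A replicate 2 they were 2.18 and 1.87 (edgeR adjusted p = 0.628 each), so Jun moved by over 1.5 times with either AIN76A library. Cell type markers differed beside these genes. All 8 Paneth markers had negative log2 fold changes (median -0.75), with sums of 40151 and 27309 CPM in AIN76A and 14640 to 19989 CPM in NWD1. All 8 goblet markers were negative too (median -0.96), with sums of 19019 and 8848 against 5293 to 8227 CPM. All 10 measured leukocyte markers were positive (median 1.58), with sums of 15.7 and 20.4 against 17.4 to 34.9 CPM. At an unadjusted edgeR p under 0.05, 3 Paneth and 4 goblet markers were lower and 4 leukocyte markers higher. None was called, and their part in the Jun and Jund values was not tested.

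In the comparison of NWD2 with AIN76A, which asks what remains when calcium and vitamin D3 are restored, the 10 genes differed little relative to their errors. Fitted log2 fold changes ranged from -0.92 for Egr1 to 0.61 for Fos, 4 positive and 6 negative, with a median of -0.14 beside -0.03 over all genes. None was called by edgeR (0 of 10, against 0% of all genes), and none had an unadjusted p under 0.05, against 1.18% of all genes higher and 2.65% lower. Only Atf3 had libraries that did not overlap, with NWD2 higher, as had 13.2% of all genes (26.4% in either direction). Without NWD2 replicate 2, which leaves 1 NWD2 library, 2 of the 10 were positive and 8 negative. Their median was then -0.28, beside -0.004 over all genes. Without NWD1 replicate 3, 4 were positive and 6 negative, with a median of -0.13 beside -0.03. DESeq2 called 52 genes of all and none of the 10. All AIN76A libraries carried one i5 index and all NWD2 libraries the other, so diet and index cannot be told apart in this comparison.

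The comparison of NWD2 with NWD1 addresses the added calcium and vitamin D3. Here 7 of the 10 genes had negative log2 fold changes, led by Jund, Egr1 and Jun, to 0.239-fold, 0.264-fold and 0.359-fold of the NWD1 level. Fos, Fosb, Atf3, Ier3 and Zfp36 had values between -0.10 and 0.50. No gene was called by edgeR (0 of 10, against 0% of all genes). At an unadjusted edgeR p under 0.05, 3 of the 10 were lower and 0 higher, against 6.75% of all genes lower and 1.14% higher (7.89% in all). All NWD2 libraries lay below all NWD1 libraries for 4 of the 10 (Jun, Junb, Jund and Egr1), against 14.5% of all genes (25.3% in either direction). The median of the 10 was -0.27, beside 0.05 over all genes. The DESeq2 Wald test called 180 genes, among them Jund (adjusted p = 0.00479) and Jun (adjusted p = 0.0492) but not Egr1 (adjusted p = 0.105). Fitting edgeR without the filter on low counts called 384 genes, among them Jund, Egr1 and Jun (adjusted p = 0.000634, 0.00134 and 0.00966). For the 10 genes both settings set the estimate over its SE against a normal distribution. The filtered edgeR test used 9.29 degrees of freedom, so these 2 settings allow less for having only 2 or 3 libraries per diet.

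Jund, Egr1 and Jun were also lower without the library that stood apart. Without NWD2 replicate 2 the log2 fold changes were -1.49 for Jund, -2.33 for Egr1 and -1.34 for Jun (edgeR adjusted p = 0.999 each), with 2 of the 10 genes at an unadjusted p under 0.05 and lower, against 2.95% of all genes. Without NWD2 replicate 1 the value of Jund was -3.06 (edgeR adjusted p = 0.07). Without NWD1 replicate 3, 3 of the 10 were lower at an unadjusted edgeR p under 0.05, against 5.75% of all genes. All NWD2 libraries then lay below the NWD1 libraries for 4 of the 10, against 20.6% of all genes. The median of the 10 was -0.37, beside 0.02 over all genes. With the i5 index as a term the values were -1.69 for Jund, -1.57 for Egr1 and -1.29 for Jun (edgeR adjusted p = 0.976 each). Within the shared index, NWD1 replicate 3 alone stood for its diet, so the values with this term rest on that library. The diet of NWD1 replicate 3 is less certain than that of the others. Its levels of Jund, Egr1 and Jun were above both NWD2 libraries. Over both comparisons that include it, the NWD1 diet was above all 4 other libraries for 2 of the 10 genes, Jun and Jund, a pattern seen in 6.88% of all genes (1006 of 14626).

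**Figure D3:**
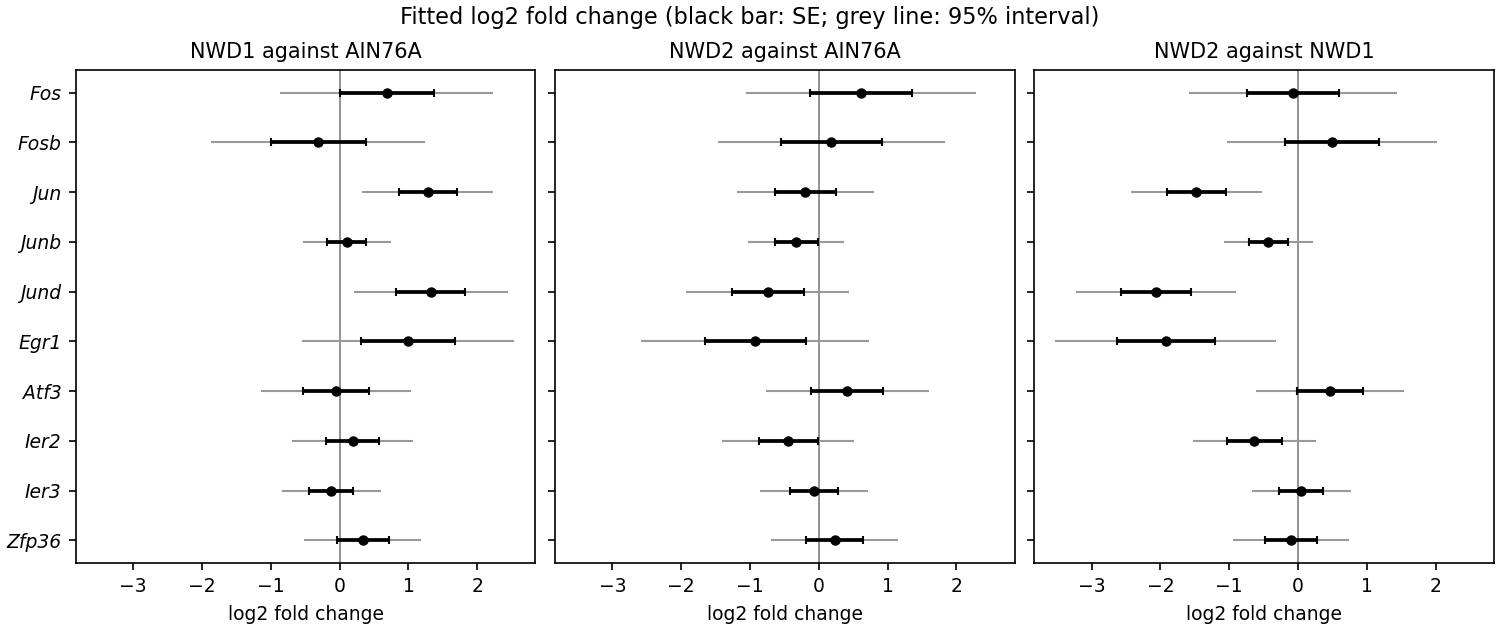
Fitted log2 fold changes of the 10 genes in the 3 comparisons. Points are edgeR estimates from 1 fit of all 7 libraries, black bars are SEs and grey lines are 95% intervals, on a common horizontal axis. The intervals of Jun and Jund lie above 0 with NWD1 against AIN76A and those of Jun, Jund and Egr1 below 0 with NWD2 against NWD1, before any adjustment for the 14626 genes tested.

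The Jun family genes and Ier2 share features of their transcripts. Jun, Junb, Jund and Ier2 are genes of 1 exon, as are 7.25% of the genes tested that have a GENCODE vM21 transcript. The transcripts of Jund (67.1% GC), Junb (62.6%) and Ier2 (60.9%) lie among the 10% of genes with the highest GC content, above 57.9%. That top 10% was low in NWD2 replicate 2, with a median of -0.88 SD from each gene's own mean over libraries, against -0.08 to 0.45 SD in the other 6. Its median log2 fold change was 0.16 for NWD1 and -0.18 for NWD2 against AIN76A, and -0.29 with NWD2 against NWD1. An edgeR fit with a smooth function of GC content as an offset in each library, added after the data were seen, gave -1.29 for Jund with NWD2 against NWD1 in place of -2.06. In that fit Jun was -1.41 and Egr1 -1.73, close to their values without the offset, while Junb turned from -0.43 to 0.15. With NWD1 against AIN76A the offset left Jun at 1.27 and took Jund from 1.32 to 0.88. Since the library preparation does not mark strand, reads from antisense neighbours of any of the 10 genes are counted alike.

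**Figure D4:**
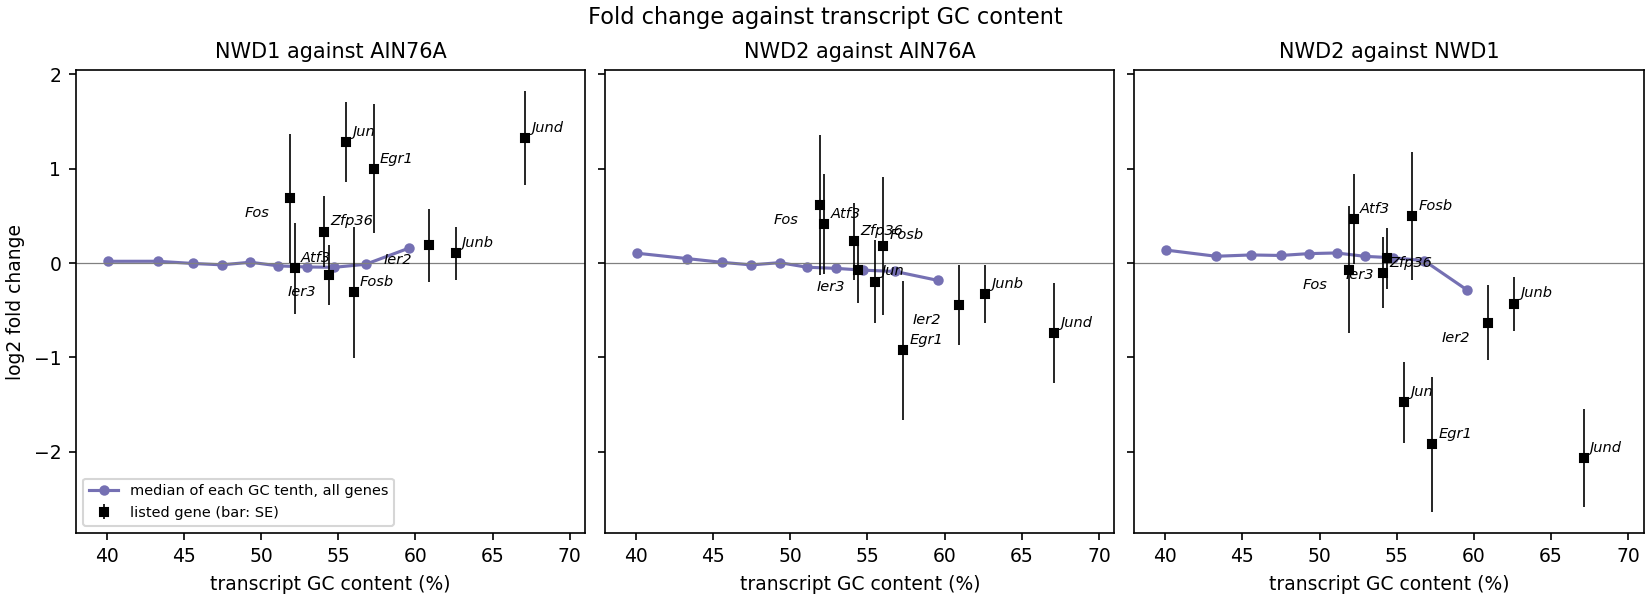
Log2 fold change against GC content of the transcript, in the 3 comparisons. Black squares are the 10 genes with their SE, and the line joins the medians of all genes in 10 bins of equal size by GC content (GENCODE vM21). With NWD2 against NWD1 the median of the top bin is -0.29, and Jund, Egr1 and Jun lie below the line, between -2.06 and -1.48.

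Across libraries the 10 genes did not vary as one block. The highest level over the lowest was 10.5-fold for Egr1, 9.16-fold for Jund, 5.65-fold for Jun and 5.21-fold for Fos, wider than in all but 1.18%, 1.52%, 4.47% and 5.57% of the 10231 genes whose average log2 CPM reached 1. It was 1.77-fold for Junb and 1.61-fold for Ier3, narrower than the median of those genes, 2.08-fold. NWD1 replicate 2, the library labelled female, had the highest level of 6 of the 10 genes (Fos, Jun, Jund, Egr1, Atf3 and Zfp36), and their sum over the 10 was 677 CPM there. AIN76A replicate 1 had the lowest level of 4 and the lowest sum, 286 CPM, and the other libraries summed to between 317 and 464 CPM. The share of counts from mitochondrial genes was 1.44 to 2.33% over all libraries, and 2.17% and 2.03% in these 2. NWD1 replicate 1, of the same diet and i5 index and labelled male, summed to 420.02 CPM. Sex and single library cannot be told apart for NWD1 replicate 2, and the part of the marker sums, depth and mitochondrial share in these levels was not tested.

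**Figure D5:**
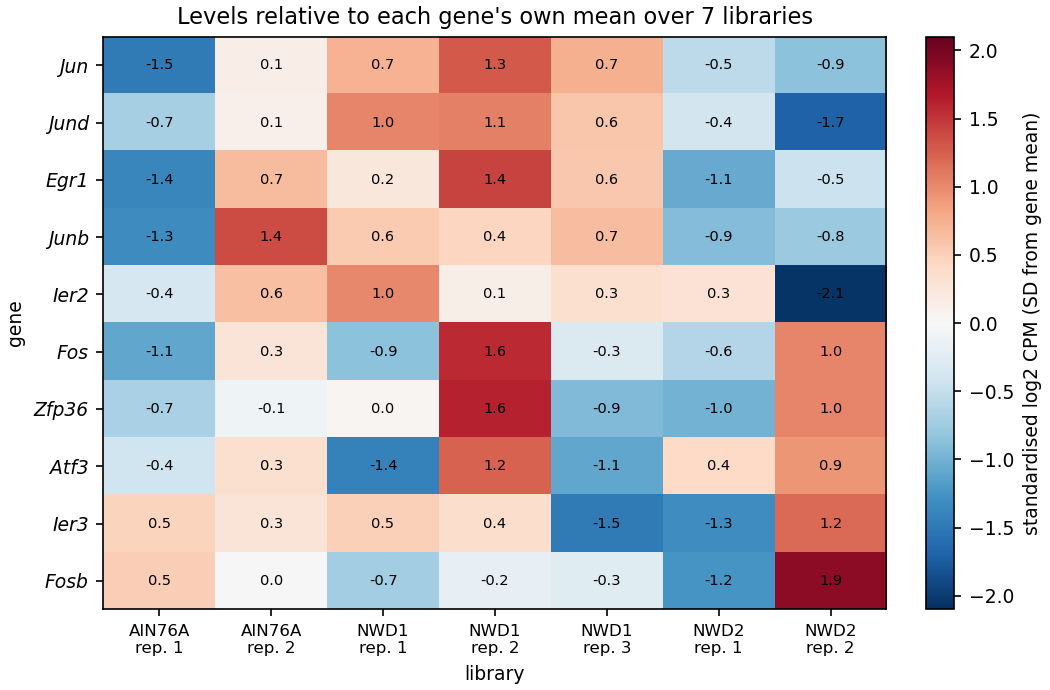
Level of each gene in each library relative to that gene's own mean. Colours and printed values are log2 CPM less the gene's mean over the 7 libraries, divided by its SD, with genes in rows and libraries in columns. NWD1 replicate 2 is the highest library for 6 genes, and Jun, Jund, Egr1, Junb and Ier2 share negative values in NWD2 replicate 2 where Fos, Zfp36, Atf3, Ier3 and Fosb are positive.

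Pairwise, 29 of the 45 correlations of log2 CPM over the 7 libraries were positive. Jun and Jund had a Pearson r of 0.875 (exact permutation p = 0.0119, adjusted 0.137) and a Spearman rho of 0.929 (exact permutation p = 0.00675, adjusted 0.304). Leaving out the 2 libraries with Jun farthest from its median gave an r of 0.939. Jun and Egr1 had an r of 0.917 (exact permutation p = 0.00536, adjusted 0.137), a rho of 0.857 (exact permutation p = 0.0238, adjusted 0.536) and an r of 0.777 without 2 libraries. Fos followed Zfp36 with an r of 0.864 (exact permutation p = 0.0143, adjusted 0.137) and a rho of 0.607 (exact permutation p = 0.167, adjusted 0.577), but the r was 0.196 without 2 libraries, so this relation rested on them. The largest negative value was that of Fosb and Ier2, with an r of -0.881 (exact permutation p = 0.0183, adjusted 0.137), a rho of -0.643 (exact permutation p = 0.139, adjusted 0.568) and an r of -0.86 without 2 libraries. None of the 45 pairs passed Benjamini-Hochberg adjustment, the p-values are two-sided, and neither i5 index held enough libraries for a value of its own. Libraries were permuted without regard to diet, so differences between diets enter these values. Jun and Jund, for example, were both higher in every NWD1 library than in any other. Correlation within a diet was not tested.

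Among 10222 other genes, those most like the mean standardised level of the 10 over the 7 libraries were Fam171a1 (r = 0.958), Spred2 (0.957), Acaa1b (0.951), Slc18a2 (0.95) and Inpp5j (0.94). Spred2 encodes an inhibitor of the Ras and MAP kinase pathway, Acaa1b a peroxisomal thiolase of fatty acid oxidation and Slc18a2 the vesicular monoamine transporter. These are the highest of many values over few libraries and are given as a description.

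The wider immediate early response was read from a list of 46 further genes, of which 40 were measured. With NWD2 against NWD1, 31 of the 40 had negative log2 fold changes, with a median of -0.55 beside 0.05 over all genes. None was called by edgeR. At an unadjusted edgeR p under 0.05, 10 were lower and 0 higher, and 17 had all NWD2 libraries below all NWD1 libraries, against 6.75% and 14.5% of all genes. Without NWD2 replicate 2 these became 34 negative of 40, 3 lower at that p against 2.95% of all genes, and 21 with no overlap against 23.7%. Without NWD1 replicate 3 they were 29 negative, 9 lower against 5.75% and 18 with no overlap against 20.6%. The 10 were Egr2, Dusp1, Dusp2, Dusp5, Ier5, Gadd45a, Gadd45b, Zfp36l2, Rhob and Cited2. Dusp1 and Dusp5, phosphatases that switch off MAP kinases and were named after their values were seen, illustrate them. Dusp1 had 0.918 and 3.68 CPM in AIN76A, 3.58, 12.0 and 3.59 CPM in NWD1 libraries, and 1.40 and 1.38 CPM under NWD2, with a log2 fold change of -2.21 (SE 0.74; edgeR adjusted p = 0.541). Dusp5 had 3.04 and 5.76 CPM in AIN76A, 8.30, 8.94 and 6.84 CPM in NWD1 libraries, and 3.34 and 2.85 CPM under NWD2, with -1.38 (SE 0.38; edgeR adjusted p = 0.498). For both genes every NWD2 library was below every NWD1 library.

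The 3 most abundant genes of that list did not share this order. Irf1, an interferon-responsive factor, had 205 ± 18.8 (SD, n = 2), 223 ± 31.4 (SD, n = 3) and 235 ± 54.4 CPM (SD, n = 2) in AIN76A, NWD1 and NWD2. Sgk1, a kinase gene induced by serum and glucocorticoids, had 129 ± 51.2 (SD, n = 2), 142 ± 115 (SD, n = 3) and 198 ± 28.0 CPM (SD, n = 2). Klf6, a zinc finger factor, had 125 ± 24.6 (SD, n = 2), 121 ± 23.7 (SD, n = 3) and 163 ± 66.4 CPM (SD, n = 2). With NWD1 against AIN76A, 30 of the 40 had positive values, with 2 higher and 1 lower at an unadjusted edgeR p under 0.05, against 2.52% and 0.896% of all genes, and a median of 0.32. With NWD2 against AIN76A, 27 of the 40 were negative, with 5 lower and 0 higher at that p, against 2.65% and 1.18% of all genes, and a median of -0.25. Without NWD2 replicate 2 these were 30 negative and 1 lower, against 1.99% of all genes.

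Of 16 other AP-1 and related leucine zipper genes, 13 were measured and none was called in any comparison. With NWD2 against NWD1, 7 were positive and 6 negative, with a median of 0.05, and 1 was lower at an unadjusted edgeR p under 0.05 (Maff, named after its values were seen), near the 6.75% of all genes. Without NWD1 replicate 3, 0 of the 13 were lower at that p, against 5.75% of all genes. Without NWD2 replicate 2, which leaves 1 NWD2 library, the median was 0.16. Atf4, a factor of the integrated stress response, had 100.1 ± 38.5 (SD, n = 2), 89.9 ± 10.2 (SD, n = 3) and 85.9 ± 21.5 CPM (SD, n = 2) in AIN76A, NWD1 and NWD2. Mafk, a small Maf protein gene, had 67.4 ± 7.45 (SD, n = 2), 79.3 ± 13.1 (SD, n = 3) and 84.9 ± 25.4 CPM (SD, n = 2), and Atf2, a partner of Jun, 45.3 ± 7.68 (SD, n = 2), 45.2 ± 7.22 (SD, n = 3) and 66.3 ± 21.2 CPM (SD, n = 2). The diets overlapped for Atf4 and Mafk, while both NWD2 libraries were above all others for Atf2, with a log2 fold change of 0.55 (SE 0.29; edgeR adjusted p = 0.692) against NWD1.

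Upstream of these genes, all 20 listed kinases and serum response factor partners were measured and none was called. With NWD1 against AIN76A, 17 of the 20 had positive log2 fold changes, with a median of 0.33, and with NWD2 against NWD1, 15 of the 20 were negative, with a median of -0.34. In the latter 4 of the 20 were lower at an unadjusted edgeR p under 0.05, against 6.75% of all genes. Without NWD1 replicate 3, 1 of 19 was lower at that p, near the 5.75% of all genes. Without NWD2 replicate 2, which leaves 1 NWD2 library, 17 of the 20 were negative, with a median of -0.28. Map2k2, a kinase that activates ERK, had 109 and 207 CPM in AIN76A, 298, 301 and 257 CPM in NWD1 libraries, and 190 and 73.9 CPM under NWD2. Its NWD1 libraries were above all others, with a log2 fold change of 0.85 (SE 0.43; edgeR adjusted p = 0.878) against AIN76A and of -1.12 (SE 0.43; edgeR adjusted p = 0.576) with NWD2 against NWD1. Mapk3, which encodes the kinase ERK1, differed little, at 285 ± 33.8 (SD, n = 2), 257 ± 23.4 (SD, n = 3) and 283 ± 26.9 CPM (SD, n = 2). Rps6ka1, a kinase downstream of ERK, had 199 ± 113 (SD, n = 2), 307 ± 55.6 (SD, n = 3) and 147 ± 81.7 CPM (SD, n = 2), with a log2 fold change of -1.06 (SE 0.46; edgeR adjusted p = 0.621) between NWD2 and NWD1.

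Heat shock genes, which accompany immediate early genes in dissociation signatures, took another course, most clearly in NWD2 replicate 1. Their sum was 2849 CPM there and 2124 CPM in NWD2 replicate 2, against 1781 to 2394 CPM in the other libraries. All 11 were measured and none was called. With NWD2 against NWD1, 8 had positive and 3 negative log2 fold changes, with a median of 0.32, and 3 were higher (Hspa1a, Hspa1b and Hsph1) and 1 lower (Hspb1, all 4 named after their values were seen) at an unadjusted edgeR p under 0.05, against 1.14% and 6.75% of all genes. All NWD2 libraries lay above all NWD1 libraries for 4 of the 11 and below for 1, against 10.8% and 14.5% of all genes. Without NWD2 replicate 2, which leaves only the library with the highest sum, 10 were positive, with a median of 0.55. Counts without NWD2 replicate 1 were not made. Without NWD1 replicate 3, 8 were positive and 3 higher at an unadjusted edgeR p under 0.05, against 1.71% of all genes. Hspa8, a constitutive chaperone, had 651 ± 161 (SD, n = 2), 637 ± 72.2 (SD, n = 3) and 987 ± 105 CPM (SD, n = 2) in AIN76A, NWD1 and NWD2, with a log2 fold change of 0.63 (SE 0.28; edgeR adjusted p = 0.636) between NWD2 and NWD1. Hsp90ab1 had 726 ± 116 (SD, n = 2), 572 ± 72.2 (SD, n = 3) and 694 ± 195 CPM (SD, n = 2), and Hspd1, the mitochondrial chaperonin, 281 ± 19.8 (SD, n = 2), 226 ± 24.7 (SD, n = 3) and 221 ± 53.7 CPM (SD, n = 2). The stress-inducible Hspa1b had 64.3 CPM in NWD2 replicate 1 and 1.72 to 9.69 CPM elsewhere, so its diets overlapped and its difference rested on 1 library. The 10 immediate early genes summed to 317 CPM in that library, between 286 CPM in AIN76A replicate 1 and 677 CPM in NWD1 replicate 2. Fosb and Zfp36 were at their lowest there, while Atf3, at 8.70 CPM, was above its median of 8.44 CPM. Hspa1a, the near-identical copy of Hspa1b, had 15.6 CPM in NWD2 replicate 1 and 0.306 to 2.39 CPM elsewhere. The counts of either copy are uncertain.

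Markers of rarer epithelial cells were also lower in the NWD2 libraries. The 10 enteroendocrine markers summed to 473 and 672 CPM in NWD2 against 1731 to 2285 CPM in the other 5 libraries, and the 10 tuft markers to 72.4 and 84.5 CPM against 132 to 364 CPM. All 20 of these markers passed the filter on low counts, and their part in the lower Jun, Jund and Egr1 levels of NWD2 was not tested.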

How the data were processed

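The count table, as deposited, gives whole reads for each Ensembl gene. Per the submitters' processing notes, the tools were STAR 2.4.2a, HTSeq 0.6.1 and edgeR (no version) and the build mm9, with neither roles nor order. TPM values are as deposited by the authors, with the gene lengths not given in the sources used here. They served only for levels between genes. One column of per-sample values (1 in all), headed NWD2 replicate 3, matched no sample and was not used.

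Counts were tested with edgeR 4.0.16 in R 4.3.3 (quasi-likelihood F test, TMM, filterByExpr on diet, robust fit, diet as the only term). All 7 libraries entered 1 fit with 4 residual degrees of freedom and a biological coefficient of variation of 0.363. Benjamini-Hochberg adjustment ran over all 14626 genes tested, and an adjusted p under 0.05 was called. Standard errors are the log2 fold change over the root of F, and 95% intervals use 9.29 degrees of freedom. An exact permutation test of 1 gene could not go below 0.333 with 2 against 2 libraries or 0.1 with 3 against 2. Log2 CPM used a prior count of 0.5. The scripts were tested on simulated data.

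Alternatives were DESeq2 size factors, no filter on low counts, the DESeq2 1.42.0 Wald test, replicate number or i5 index as a term, and each library left out. A GC offset (loess span 0.5, 14130 genes) and counts without NWD2 replicate 2 or NWD1 replicate 3 were added after the data were seen. GC content and exon numbers come from GENCODE vM21 (GRCm38) by gene ID, and found a transcript for 96.6% of the genes tested. As that is another build than mm9, only promoter windows are given coordinates.

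The 10 genes, the lists and the tests were chosen with earlier results of these data known. By rule, all 10 genes were named, the 3 of highest average CPM in each further list, the 5 most alike, and promoters with a CArG box or TGACGTCA. All 186 listed symbols matched.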

Additional observations from a re-analysis of the deposited data

How the results depend on the processing

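Of the 30 log2 fold changes of the 10 genes over the 3 comparisons, DESeq2 size factors turned none, and neither did the DESeq2 Wald test or leaving out the filter. Genes called in the order NWD1 against AIN76A, NWD2 against AIN76A and NWD2 against NWD1 numbered 0, 0 and 0, but 85, 190 and 384 with no filter (24477 genes tested) and 1, 52 and 180 with the DESeq2 Wald test. Of the 10 genes, 3 and 2 were called in the last comparison in these 2 settings, both of which refer to a normal distribution and allow less for few libraries. The i5 term called 1 gene with NWD2 against AIN76A and 2 with NWD2 against NWD1, and leaving out 1 library called 0 to 1. The cause was not tested.

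Replicate numbers are shared between diets, but the labels do not say that they pair the samples. Deviations of same-numbered libraries correlated at 0.132 and -0.0236 between AIN76A and NWD1, 0.0622 between AIN76A and NWD2, and 0.234 and 0.106 between NWD1 and NWD2, over genes. Different-numbered libraries gave -0.234 to 0.144. With 2 libraries in AIN76A and in NWD2, deviations within each of these diets mirror each other. Values of both kinds are thus tied with opposite sign and cannot decide whether the numbers pair the samples. With the replicate block 0, 1 and 0 genes were called, and Jund with NWD2 against NWD1 was -2.26 (edgeR adjusted p = 0.524). The block turned Atf3 (0.018) and Ier3 (0.016) with NWD1 against AIN76A and Ier3 (-0.11) with NWD2 against NWD1.

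The i5 term turned Atf3 (0.16) and Ier3 (0.017) with NWD1 against AIN76A, Jun (0.070) and Ier3 (0.42) with NWD2 against AIN76A, and Fos (0.65) and Zfp36 (0.46) with NWD2 against NWD1. The GC offset turned Junb (-0.14) and Ier2 (-0.0019) with NWD1 against AIN76A, and Junb with NWD2 against AIN76A (0.011) and against NWD1 (0.15). The cause was not tested. Leaving out each library moved these over 0. With NWD1 against AIN76A the ranges were -0.26 to 1.41 for Fos, -0.26 to 0.57 for Junb, -0.75 to 0.22 for Atf3, -0.070 to 0.49 for Ier2, -0.21 to 0.018 for Ier3 and -0.012 to 0.55 for Zfp36. With NWD2 against AIN76A they were -0.29 to 1.35 for Fos, -0.71 to 0.70 for Fosb, -0.75 to 0.72 for Jun, -0.68 to 0.15 for Junb, -1.69 to 0.80 for Egr1, -1.29 to 0.073 for Ier2, -0.42 to 0.17 for Ier3 and -0.26 to 0.55 for Zfp36. With NWD2 against NWD1 they were -0.97 to 0.87 for Fos, -0.39 to 1.01 for Fosb, -0.29 to 0.30 for Ier3 and -0.58 to 0.24 for Zfp36. Jun and Jund with NWD1 against AIN76A, and Jun, Jund, Egr1 and Ier2 with NWD2 against NWD1, kept their sign under every alternative run. Leaving out 1 library moved some values that kept their sign by over 1.5 times: Atf3 with NWD2 lay between 0.20 and 0.67 against AIN76A and between 0.19 and 1.16 against NWD1, Fosb with NWD1 against AIN76A between -0.42 and -0.19, and Ier2 with NWD2 against NWD1 between -1.47 and -0.11.

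The median of the 10 genes ranged from 0.05 to 0.53 with NWD1 against AIN76A, from -0.37 to 0.26 with NWD2 against AIN76A and from -0.51 to -0.03 with NWD2 against NWD1. Depth limited Fosb most, with 4 counts in NWD1 replicate 3.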
